A study of Mus musculus with 6 samples.

Results

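The genes Cd68, Msr1, Mrc1, Lyz2, Lgals3, Csf1r and Adgre1 mark macrophages and the uptake and digestion of particles, and they were followed across muscle that had performed eccentric contractions, isometric contractions or almost none. The members are 7 genes, of 8251 genes that at least 1 probe set names alone. They were chosen with earlier results of these data known and found by gene symbol in the platform annotation. The array carries 12 probe sets that name 1 of them, out of 12422 probe sets that are not array controls. A further probe set names both Lyz1 and Lyz2 and is described separately. Of the 12 probe sets, 9 entered at least 1 comparison. The other 3, a second probe set each of Cd68, Lyz2 and Adgre1, lay at or below the floor, a signal of 120.8 under which values were not told apart, on every array.

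RNA came from the tibialis anterior, the muscle at the front of the shin, of mice killed at 48 h. The eccentric group had performed 50 contractions in which the active muscle is stretched, and the isometric group 50 contractions at constant length, both in a non-invasive model. The control group was the opposite, unexercised leg, contracted just enough for its isometric torque to be read, and the labels do not say which exercised animals these legs came from. The labels give no strain, age or sex for the mice. For each group the RNA of 4 animals was combined into 1 pool and hybridised to 2 Affymetrix MGU74Av2 arrays, A and B. A group is therefore 1 biological sample. Values below are linear signals, and mean ± SD covers n = 2 arrays of a pool, that is labelling and hybridisation but not the spread between animals. No difference has a replicate check across animals, and no p-value is given for the type of contraction.

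Macrophages clear dying cells and debris, and after muscle injury monocytes from the blood enter the tissue and become macrophages, first mainly phagocytic and later mainly restorative. Receptors at their surface bind sugars, modified lipids and cell debris, and the bound material is carried to lysosomes and broken down. Resident macrophages also lie between the fibres of uninjured muscle. In whole muscle, fewer cells of a type and less RNA per cell cannot be told apart.

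The promoter windows of 4 of the 7 genes were found in a RefSeq table (build GRCm38.p6), and these 4 were not picked from the 7 by their expression. Like the other members, all 4 genes were higher in the eccentric pool. In the isometric pool Mrc1 overlapped the control arrays and the other 3 did not. Each window runs from 250 bases before to 50 bases after the annotated start, on the strand of the gene. Capitals mark matches, on either strand, to GAGGAA (the core bound by PU.1, the ETS factor of myeloid cells), to TGANTCA (the site of AP-1, the Fos and Jun family) and to GGGCGG (the GC box). The Cd68 window is chr11:69666121-69666420 on the minus strand, that of Lyz2 is chr10:117282223-117282522 on the minus strand, that of Lgals3 is chr14:47373610-47373909 on the plus strand, and that of Mrc1 is chr2:14229164-14229463 on the plus strand.
Cd68: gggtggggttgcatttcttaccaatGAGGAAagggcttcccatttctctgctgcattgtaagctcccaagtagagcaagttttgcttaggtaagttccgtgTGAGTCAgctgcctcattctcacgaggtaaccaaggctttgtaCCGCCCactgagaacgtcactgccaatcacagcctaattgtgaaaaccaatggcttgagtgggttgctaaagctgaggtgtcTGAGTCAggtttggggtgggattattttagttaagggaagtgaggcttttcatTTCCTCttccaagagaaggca
Lyz2: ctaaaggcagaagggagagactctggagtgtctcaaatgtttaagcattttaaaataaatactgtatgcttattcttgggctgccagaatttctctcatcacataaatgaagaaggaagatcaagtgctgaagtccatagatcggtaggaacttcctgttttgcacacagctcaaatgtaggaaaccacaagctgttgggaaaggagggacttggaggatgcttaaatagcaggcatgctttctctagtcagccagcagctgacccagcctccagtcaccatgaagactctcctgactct
Lgals3: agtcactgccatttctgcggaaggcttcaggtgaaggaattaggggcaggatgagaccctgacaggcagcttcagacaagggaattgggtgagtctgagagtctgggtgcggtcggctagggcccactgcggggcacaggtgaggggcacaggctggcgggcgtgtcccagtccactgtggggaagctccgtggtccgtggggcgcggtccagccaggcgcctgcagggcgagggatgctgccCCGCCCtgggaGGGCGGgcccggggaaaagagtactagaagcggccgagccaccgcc
Mrc1: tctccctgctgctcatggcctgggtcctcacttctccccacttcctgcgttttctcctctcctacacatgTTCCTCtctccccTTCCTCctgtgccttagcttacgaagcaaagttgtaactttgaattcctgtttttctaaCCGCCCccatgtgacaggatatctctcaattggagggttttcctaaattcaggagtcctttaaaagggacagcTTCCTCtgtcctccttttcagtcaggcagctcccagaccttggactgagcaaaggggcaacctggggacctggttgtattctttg

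The 4 windows had little in common by these letters. Cd68 held 2 matches to GAGGAA, 2 to TGANTCA and 1 to GGGCGG, and Mrc1 held 3, 0 and 1. Lgals3 held 2 matches to GGGCGG, which lie on either side of its start, and none of the others, and Lyz2 held none of the 3. No match overlapped another. Of 32851 promoter windows of this length in the table, 28.3% held GAGGAA, 7.81% TGANTCA and 35.7% GGGCGG. GC content was 67.0% for Lgals3, 50.3% for Mrc1, 47.7% for Cd68 and 44.3% for Lyz2, against a median of 52.7% over all windows. A match is a string of letters and not a measured binding site.

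Each comparison set the mean log2 signal of one pool against that of another, after values under the floor were raised to it. Only probe sets above the floor on both arrays of either pool were tested. A call of higher or lower needed means at least 1 apart on the log2 scale, a 2-fold difference. It also needed the same sign in each of the 4 pairings of arrays across the pools. Between the eccentric and control pools, all 7 genes had a probe set called higher. That was 7 of 9 tested probe sets, against a background of 4.86% of 7486 probe sets called higher and 1.11% called lower. The members were chosen with earlier results of these data known, so the contrasts with the background are descriptions and not independent tests. The 9 included Adgre1 103507_at and Msr1 94140_at, each with 1 control array under the floor (65.0 and 74.7). Both were tested only through their eccentric arrays, so they could come out only as higher or not called. Between the isometric and control pools 4 of 8 were called higher (Cd68, Msr1, Lyz2 and Lgals3), against 0.913% of 7336 called higher and 0.409% called lower. The background split of 67 higher and 30 lower in that comparison was 205 and 213 with the floor lowered to the 20th percentile, and 103 and 106 without isometric A. Between the eccentric and isometric pools 3 of 9 were called higher (Mrc1, Adgre1 and the dimmer probe set of Msr1), against 1.64% of 7372 higher and 0.61% lower. That Msr1 probe set was tested only through its eccentric arrays, both isometric arrays being under the floor, so it could only come out higher, and the brighter Msr1 probe set was not called. Both eccentric arrays lay above both control arrays for 8 of 9 member probe sets, against 30.1% of all tested, and above both isometric arrays for 8 of 9, against 28.3%. No member probe set was called lower in any of the 3 comparisons. Adgre1 103507_at against control, and the dimmer Msr1 probe set wherever it was tested, could not be called lower. The median log2 differences of the tested member probe sets were 1.64, 0.82 and 0.86 in these comparisons, against -0.03, -0.01 and 0.02 over all tested probe sets. The eccentric against control and isometric against control comparisons share the control arrays.

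**Figure D1:**
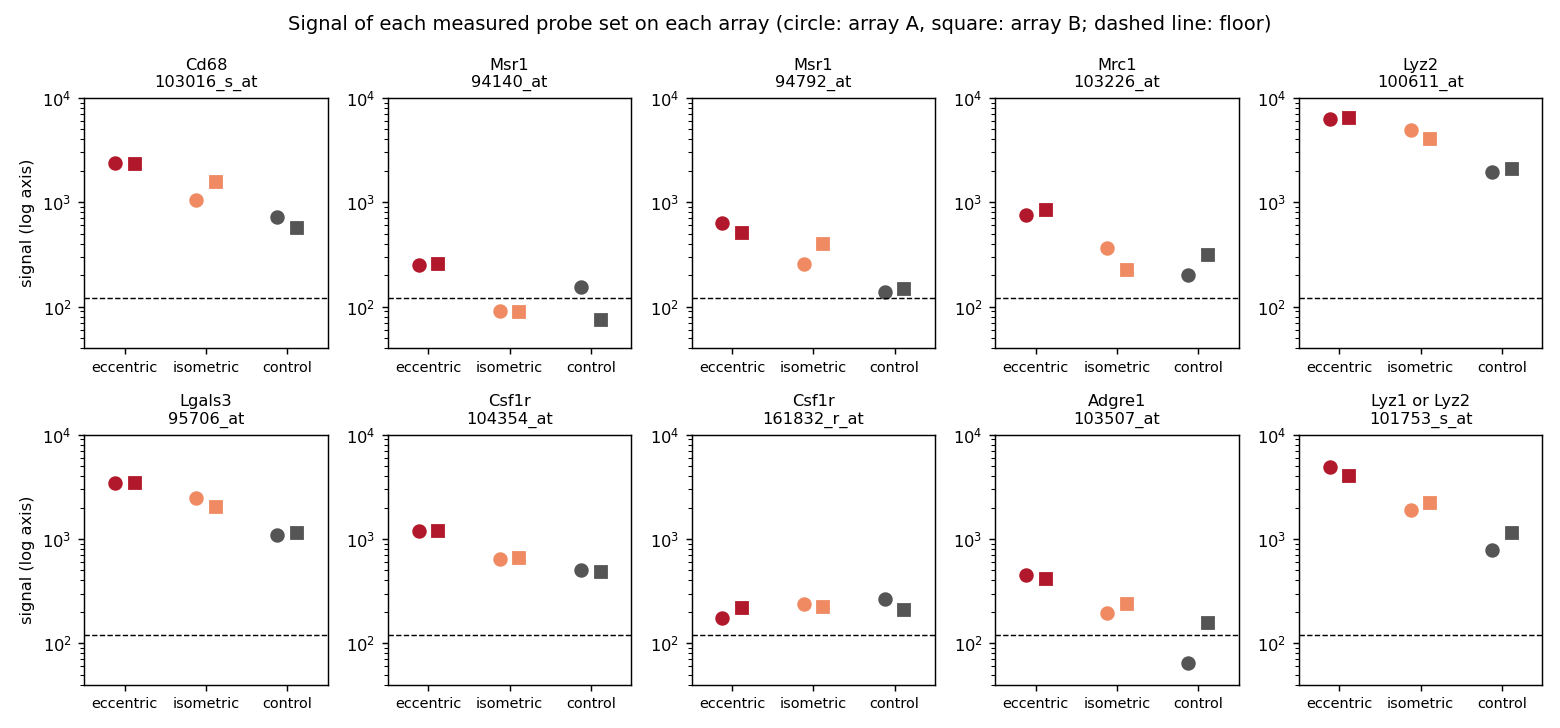
Signal (log axis) of the 9 measured member probe sets and of the Lyz1 or Lyz2 probe set in the eccentric, isometric and control pools, with array A as a circle, array B as a square and the floor of 120.8 as a dashed line. The eccentric arrays lie above the other arrays in all panels but that of Csf1r 161832_r_at, which lies between 174.2 and 268.6 on every array.

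Lyz2 encodes the lysozyme of macrophages and other myeloid cells, an enzyme that cuts the cell wall of bacteria, and it had the highest signal of the members. Its probe set 100611_at read 6227 and 6374 on the eccentric arrays, 4911 and 4081 on the isometric arrays, and 1964 and 2070 on the control arrays. The 3 pools did not overlap, with the eccentric arrays highest and the control arrays lowest. The signal was 3.12-fold higher in the eccentric pool than in the control pool (6300 ± 104 against 2017 ± 75.1), a log2 difference of 1.64 with pairings from 1.59 to 1.70. In the isometric pool it was 2.22-fold higher than in the control pool (4496 ± 587), a log2 difference of 1.15. The log2 difference between the eccentric and isometric pools was 0.49, the smallest among the brightest probe sets of the 7 genes, and was not called.

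Another probe set, 101753_s_at, is annotated to both Lyz2 and its neighbour on chromosome 10, Lyz1, the lysozyme of Paneth cells in the gut, so its signal cannot be assigned to either. It read 4842 and 4008 on the eccentric arrays, 1892 and 2214 on the isometric arrays and 785.2 and 1135 on the control arrays. All 3 log2 differences passed the rule, at 2.22 for eccentric against control, 1.12 for isometric against control and 1.11 for eccentric against isometric. The last of these was larger than the 0.49 of the probe set that names Lyz2 alone, and the pairings of the 2 probe sets did not overlap (0.86 to 1.36 against 0.34 to 0.64). Probe set 162309_at of Lyz2 read 12.6 to 39.3 on the 6 arrays, below the floor.

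Lgals3 encodes galectin-3, a lectin that binds galactose-containing sugars, is abundant in phagocytic macrophages and is also made by other cells. The signals were 3412 and 3424 on the eccentric arrays, 2449 and 2032 on the isometric arrays, and 1088 and 1134 on the control arrays. As for Lyz2, the pools did not overlap and stood in the order eccentric, isometric, control. The eccentric pool was 3.08-fold higher than the control pool (3418 ± 8.5 against 1111 ± 32.8), with pairings from 1.59 to 1.65 on the log2 scale. The isometric pool, at 2240 ± 295, was 2.01-fold higher than the control pool, only just past the threshold. That call was lost without isometric A (log2 difference 0.87) and without control A (0.98). The log2 difference between the eccentric and isometric pools was 0.62 and was not called.

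Cd68 encodes a heavily glycosylated membrane protein of macrophage lysosomes. Its measured probe set, 103016_s_at, has a suffix by which Affymetrix marks probes that can match more than 1 transcript. It read 2358 and 2313 on the eccentric arrays, 1057 and 1556 on the isometric arrays, and 720.3 and 569.8 on the control arrays. The pools again did not overlap, but the 2 isometric arrays lay far apart, by 0.56 on the log2 scale against 0.03 for the eccentric arrays and 0.34 for the control arrays. The eccentric pool was 3.65-fold higher than the control pool (2336 ± 32.0 against 645 ± 106), rank 38 from the top of 7486 tested probe sets. The isometric pool (1306 ± 352) was 2.002-fold higher than the control pool, a log2 difference of 1.001, just past the threshold, with pairings from 0.55 to 1.45. This call was lost without isometric B, at 0.72, and without control B, at 0.83. The eccentric against isometric difference of 0.86 did not pass, but it passed without isometric B, at 1.14.

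Msr1 encodes the class A scavenger receptor, which takes up modified lipoproteins and bacteria. Its 2 probe sets, both dim, gave the same direction for the eccentric pool, and only 94792_at was above the floor in the isometric pool. Probe set 94792_at read 630.2 and 506.5 on the eccentric arrays, 256.2 and 395.8 on the isometric arrays, and 137.3 and 147.8 on the control arrays. These pools did not overlap, and the eccentric pool was 3.97-fold higher than the control pool, rank 29 of 7486. This log2 difference of 1.99 was the largest of the 9 probe sets with all arrays, but Cd68 was above Msr1 without control A (2.04 against 1.93) and without eccentric A (1.85 against 1.83), and Adgre1 was above it with the floor at the 20th percentile (2.10). The isometric pool was 2.24-fold higher than the control pool, a log2 difference of 1.16 that fell to 0.85, under the threshold, without isometric B. The eccentric against isometric difference of 0.83 was not called with all arrays and was called without isometric B, at 1.14.

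Probe set 94140_at of Msr1 read 252.3 and 257.1 on the eccentric arrays, 90.8 and 89.7 on the isometric arrays, both under the floor, and 153.9 and 74.7 on the control arrays. The isometric and control pools thus could not be compared on it. It was at least 2.11-fold higher in the eccentric pool than in the isometric pool. With control B raised to the floor, the log2 difference between the eccentric and control pools was 0.90 and was not called. It passed without control A, at 1.08, and with the floor at the 20th percentile, at 1.25. The 2 probe sets of Msr1 therefore gave no common reading of the isometric pool, with 94792_at above the control arrays and 94140_at below the floor.

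Mrc1 encodes the mannose receptor, a lectin that internalises glycoproteins and is high on many resident and restorative macrophages. The signals were 761.1 and 846.0 on the eccentric arrays, 365.1 and 225.6 on the isometric arrays, and 199.2 and 314.7 on the control arrays. The eccentric arrays stood apart, while the isometric and control arrays overlapped. The eccentric pool was 3.20-fold higher than the control pool (804 ± 60.0 against 257 ± 81.7) and 2.80-fold higher than the isometric pool (295 ± 98.7). The log2 difference between the isometric and control pools was 0.20, with pairings from -0.48 to 0.87. The 2 isometric and the 2 control arrays differed from their partners by 0.69 and 0.66 on the log2 scale, more than the difference between the pools. At 1.48, Mrc1 had the largest eccentric against isometric difference of the 7 genes, rank 28 of 7372. Without isometric B it had 1.14, against 1.15 for Adgre1 and 1.14 each for Cd68 and Msr1, so the ranking rested on that array. With all arrays its pairings (1.06 to 1.91) did not overlap those of Lyz2 (0.34 to 0.64) or Lgals3 (0.48 to 0.75).

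Csf1r encodes the receptor for colony stimulating factor 1, on which the survival and differentiation of most macrophages depend. Its probe set 104354_at read 1192 and 1203 on the eccentric arrays, 648.4 and 651.7 on the isometric arrays, and 501.6 and 482.6 on the control arrays. The pools did not overlap. The eccentric pool was 2.43-fold higher than the control pool (1198 ± 7.4 against 492 ± 13.4). The isometric pool, at 650 ± 2.3, was 1.32-fold higher than the control pool, with pairings from 0.37 to 0.43 on the log2 scale, and was not called. The eccentric pool was 1.84-fold higher than the isometric pool, also not called. A second probe set, 161832_r_at, whose suffix marks probes chosen under relaxed rules, read 174.2 and 215.9 on the eccentric arrays, 235.9 and 221.9 on the isometric arrays and 268.6 and 207.6 on the control arrays. Its log2 differences were -0.28 for eccentric against control, -0.05 for isometric against control and -0.24 for eccentric against isometric, none of them called, and so did not share the direction of 104354_at.

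Adgre1 encodes an adhesion receptor long used as the surface marker of mature mouse macrophages. Its signals were 447.4 and 416.3 on the eccentric arrays, 194.2 and 239.6 on the isometric arrays, and 65.0 and 156.8 on the control arrays, the first control array lying under the floor. The pools did not overlap. With that array raised to the floor the eccentric pool was 3.14-fold higher than the control pool, and the isometric pool differed from the control pool by 0.65 on the log2 scale, which was not called. With the floor lowered to the 20th percentile the isometric difference was 1.10 and passed. The eccentric against isometric log2 difference of 1.0005 passed by the narrowest margin, and the call was lost without eccentric A (0.95), without isometric A (0.85), with array medians made equal (0.94) and with quantile normalisation (0.93). Probe set 161377_at read 13.2 to 57.8 on all arrays.

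**Figure D2:**
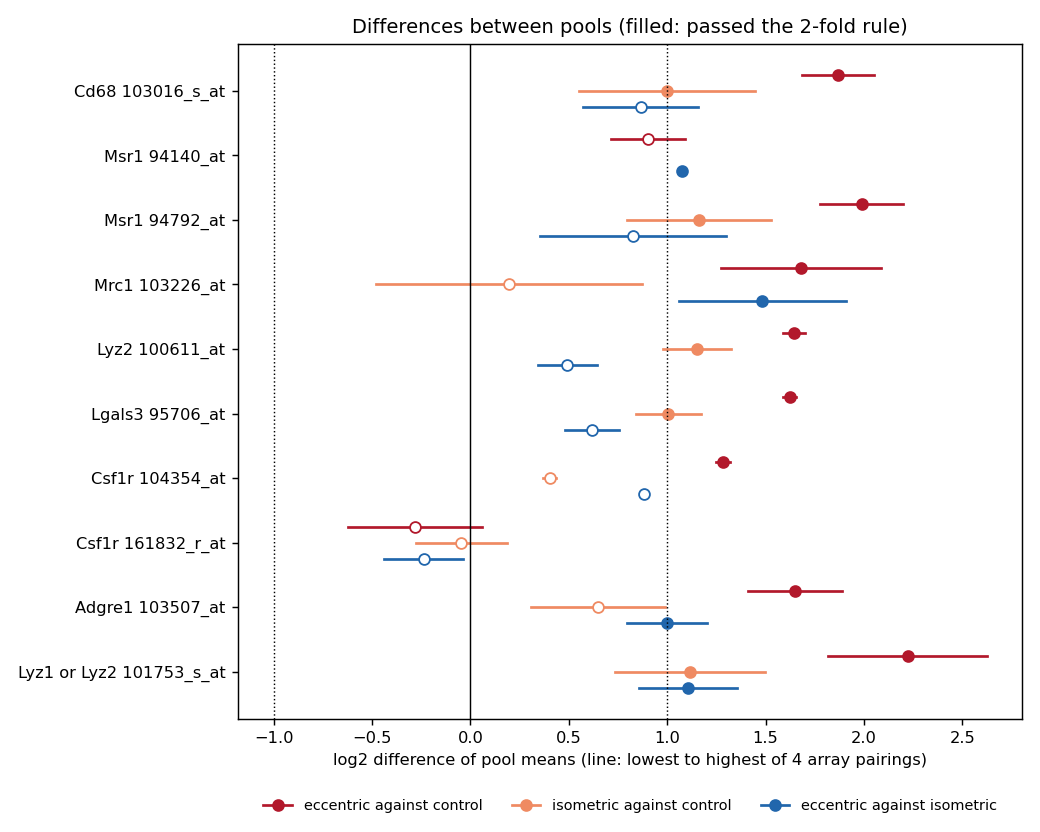
Log2 difference of pool means for each measured probe set in the 3 comparisons, with a line from the lowest to the highest of the 4 array pairings and filled points where the 2-fold rule was passed. Lyz2 and Lgals3 differ least between the eccentric and isometric pools (0.49 and 0.62 among the brightest probe sets) and Mrc1 most (1.48), a lead that Mrc1 lost without isometric B.

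Ordered by the eccentric against control difference, the brightest probe sets of the genes were Msr1 (1.99), Cd68 (1.87), Mrc1 (1.68), Adgre1 (1.65), Lyz2 (1.64), Lgals3 (1.62) and Csf1r (1.28). The pairings of Msr1 overlapped those of Cd68, Mrc1 and Adgre1, and the pairings of Cd68 also overlapped those of Mrc1, Adgre1 and Lyz2. Mrc1, Adgre1, Lyz2 and Lgals3 overlapped one another, so most of this order was not resolved, whereas Csf1r, with pairings from 1.25 to 1.32, overlapped only those of Mrc1. In the isometric against control comparison the order was Msr1 (1.16), Lyz2 (1.15), Lgals3 (1.01), Cd68 (1.001), Adgre1 (0.65), Csf1r (0.40) and Mrc1 (0.20), and the pairings of Csf1r lay below those of Msr1, Lyz2, Lgals3 and Cd68. These differences compare each probe set with itself and not the levels of different genes.

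**Figure D3:**
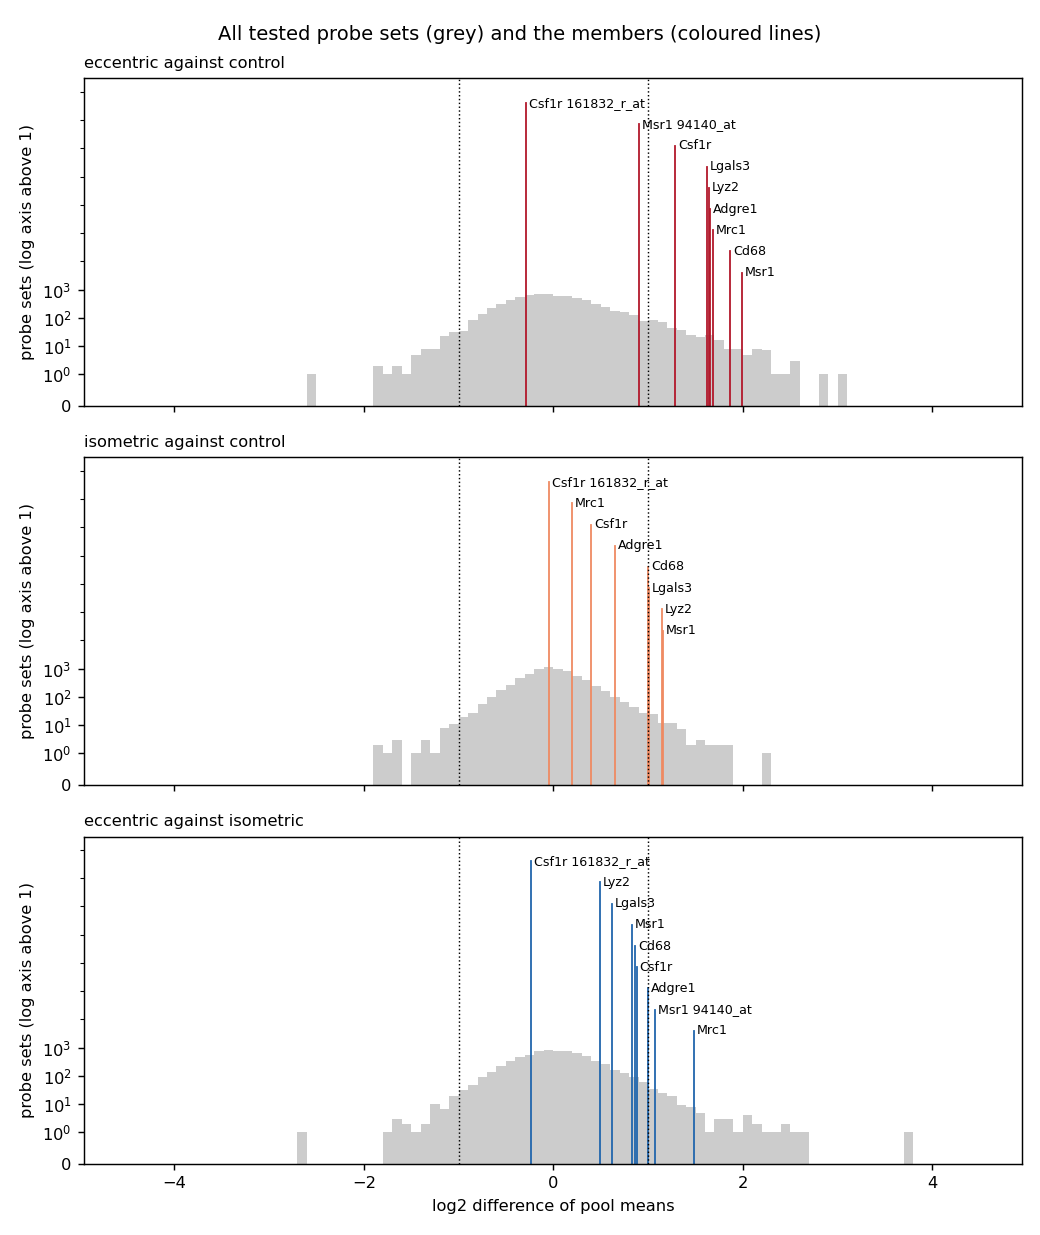
Number of tested probe sets by log2 difference of pool means, in bins of 0.1, with the members as coloured lines whose height carries no meaning and dotted lines at the 2-fold threshold. The members called in the eccentric against control comparison lie between 1.28 and 1.99, and those called in the isometric against control comparison between 1.001 and 1.16.

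Lyz2 and Lgals3 had nearly the same profile over the 6 arrays, with a Pearson correlation of floored log2 signals of 0.996. Mrc1 had the lowest of these correlations, 0.73 with Cd68 and 0.74 with Msr1, while it reached 0.91 with Csf1r and 0.88 with Adgre1. These are descriptions over 6 arrays that come from only 3 pools, so many genes correlate highly: among 487 other probe sets with a range of at least 1 over the pool means, 57 exceeded 0.95 with Lyz2, 77 with Lgals3, 35 with Mrc1 and 130 with Csf1r. The genes most like Lyz2 were Anxa1 (0.999), Lgals3 and the chemokine Ccl2 (0.996 each). Those most like Lgals3, after Lyz2, were Rrad (0.995) and Sec61a1 (0.994), and those most like Mrc1 were Ckap4 (0.993), Lgmn (0.990) and Tgfbi (0.988). Closest to Csf1r were Grn (0.999), Cryab (0.998) and Atf3 (0.997). Cd68 was followed by Capg, Tubb3 and Ncf4 (0.996, 0.996 and 0.994), Msr1 by Ifi30, Crip1 and Cks1b (0.998, 0.996 and 0.994), and Adgre1 by Tubb6, Apbb1ip and Srrt (0.996, 0.996 and 0.993).

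Genes of the compartments in which the members act were read from 4 further lists, also chosen with earlier results of these data known. Over all tested probe sets, 4.86% were called higher and 1.11% lower in eccentric against control. These shares were 0.913% and 0.409% in isometric against control, and 1.64% and 0.61% in eccentric against isometric. A count of 0 in a short list is near such shares. In the list of other scavenger and uptake receptors, 3 of 16 tested probe sets were higher in the eccentric than in the control pool, 0 were lower and 13 were not called, with a median log2 difference of 0.43. Stab1, a scavenger receptor of macrophages and sinusoidal endothelium, read 1658 and 1618 on the eccentric arrays, 850.4 and 877.3 on the isometric arrays and 411.6 and 419.3 on the control arrays, and was also higher in the isometric than in the control pool (log2 difference 1.06). The lectin Clec4d was at least 3.33-fold higher in the eccentric pool than in the control pool, whose arrays were under the floor, and the integrin subunit Itgb2 had a log2 difference of 1.43 with control A, at 87.5, raised to the floor. Clec4d and Itgb2 were tested against control only through their eccentric arrays, so neither could be called lower there. Cd14, the coreceptor for bacterial lipopolysaccharide, had an eccentric against control log2 difference of 0.998, just under the threshold and not called, with 0.87 in the isometric against control comparison. In that comparison 1 of 16 of these probe sets was called higher, and between the eccentric and isometric pools 1 of 15, Clec4d.

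Of the phagosome and lysosome list, 12 of 32 tested probe sets, for 10 genes, were higher in the eccentric than in the control pool and 0 were lower, with a median of 0.59. Cyba, the membrane subunit of the phagocyte oxidase, read 1722 and 1613 on the eccentric arrays, 634.7 and 788.9 on the isometric arrays and 413.8 and 315.7 on the control arrays on 97013_f_at, and its second probe set had an eccentric against control difference of 1.71. Ncf4, a cytosolic subunit of the same oxidase, had a log2 difference of 1.73, the lysosomal protease Lgmn one of 1.69 and the lysosomal membrane protein Laptm5 one of 1.54. Between the isometric and control pools 0 of 31 were called, near the shares over all tested probe sets (0.913% higher, 0.409% lower). Of the 31, 23 were above 0, and the median was 0.35 against -0.01 over all tested probe sets. Between the eccentric and isometric pools 4 of 32 were called higher, for Cyba, Lgmn and Laptm5.

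The list around the Csf1 receptor and macrophage transcription factors had 2 of 14 probe sets higher in the eccentric than in the control pool and 0 lower, with a median of 0.48. Spi1, which encodes PU.1, read 504.3 and 500.0 on the eccentric arrays, 356.5 and 349.2 on the isometric arrays and 59.0 and 248.2 on the control arrays, of which the first was under the floor. With control A raised to the floor, Spi1 was called higher in both exercised pools, with log2 differences of 1.54 and 1.03 against control. In both comparisons it was tested only through the exercised arrays, so it could not be called lower. Irf8, a transcription factor of monocytes, had an eccentric against control difference of 1.12. Csf1, the ligand of the receptor, had differences of 0.94 for eccentric against control and 0.29 for isometric against control, neither of them called. Between the isometric and control pools 1 of 12 was higher and 1, Csf3r, was lower, and between the eccentric and isometric pools 0 of 15 were called. The list of other galectins and lysozymes had 0 of 6 probe sets called in each of the 3 comparisons, and its brightest gene, Lgals1, had an eccentric against control difference of 0.86.

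**Figure D4:**
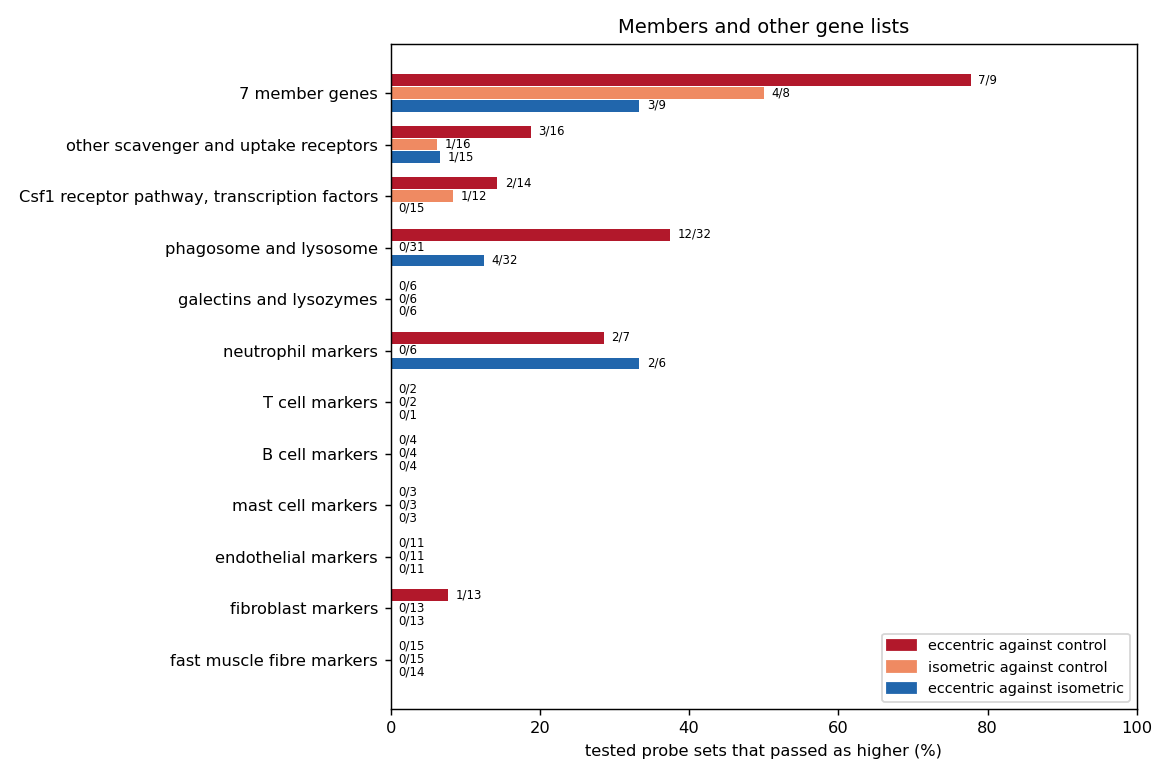
Percentage of tested probe sets that passed as higher in each comparison, for the 7 genes and the other lists, with the counts beside the bars. The 7 genes (7 of 9 in eccentric against control) and the phagosome and lysosome list (12 of 32) have the longest bars for eccentric against control, followed by neutrophil markers (2 of 7), and galectins and lysozymes, T cell, B cell, mast cell, endothelial and fast muscle fibre markers have 0.

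Markers of other cells were read in the same way. Over all tested probe sets, 4.86% were called higher and 1.11% lower between the eccentric and control pools. Summed signals add every probe set of a list as read, including those under the floor, whose values were not told apart. For fast muscle fibres, the labelled tissue, all 10 genes lay above the floor on at least 1 array. Their summed signals were 285232 to 295887 in the eccentric pool, 281088 to 394485 in the isometric pool and 318320 to 393094 in the control pool, with a median log2 difference of -0.29 for eccentric against control and 0 of 15 probe sets called. In that comparison 0 of 15 were above 0, against 47.5% of all tested probe sets. For eccentric against isometric 0 of 14 were above 0, against 52.1%, and for isometric against control 3 of 15, against 47.8%. Lyz2 is also expressed by neutrophils. Of 13 neutrophil genes on the array, Ly6g, Ngp, Mmp8, Mmp9 and Prtn3 were under the floor on every array, and the summed signal was 2375 to 2420 in the eccentric pool, 2169 to 2357 in the isometric pool and 2046 to 2416 in the control pool. S100a8 read 354.7 and 382.3 on the eccentric arrays, 131.6 and 104.0 on the isometric arrays and 143.8 and 122.6 on the control arrays. It was called higher in the eccentric pool against both others, and was not called between the isometric and control pools. With isometric B under the floor, S100a8 could not be called lower in the eccentric than in the isometric pool. For the same reason it could not be called higher in the isometric than in the control pool. S100a9 read 248.2 and 326.5 on the eccentric arrays, 75.1 and 46.6 on the isometric arrays and 65.2 and 112.0 on the control arrays. Its isometric and control values were all under the floor, so it was tested only through its eccentric arrays. It was called higher against both other pools but could only come out higher. Between the isometric and control pools S100a9 was not tested. S100a8 and S100a9 were 2 of 7 tested neutrophil probe sets for eccentric against control. Of the 7, 3 were above 0 and the median log2 difference was -0.08, with -0.58 for Lcn2 and -0.44 for Elane, neither of them called. The part of neutrophils in the Lyz2 signal was not tested.

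Among 9 T cell genes, 6 were under the floor on every array, Cd3e, Cd3g and Cd3d among them, and 0 of 2 tested probe sets were higher in the eccentric than in the control pool. Their summed signal was 790 to 892 in the eccentric pool, 429 to 666 in the isometric pool and 895 to 1337 in the control pool. Of the 2 tested probe sets, that of Zap70 had eccentric B, at 109.9, under the floor. It was tested only through its control arrays (171.6 and 177.1), so it could not be called higher. Cd4 was called lower in the isometric than in the control pool. Its isometric arrays (66.0 and 94.0) were under the floor, so it was tested only through its control arrays (460.2 and 208.9). Cd4 could therefore only come out lower there. B cell, mast cell and endothelial markers had 0 of 4, 0 of 3 and 0 of 11 probe sets called between the eccentric and control pools. Cd22 and Cr2 of the B cell list, and Mcpt4, Ms4a2 and Fcer1a of the mast cell list, were under the floor on every array. B cell summed signals were 1242 to 1267 in the eccentric pool, 1087 in the isometric pool and 1301 to 2020 in the control pool. Mast cell sums were 1542 to 1585 in the eccentric pool, 1600 to 1640 in the isometric pool and 1550 to 1832 in the control pool. Endothelial sums were 7710 to 7960 in the eccentric pool, 7308 to 7567 in the isometric pool and 6969 to 7812 in the control pool. Of the fibroblast markers 1 of 13 probe sets, for Col3a1, was higher in the eccentric than in the control pool, while its other 2 probe sets were not called, and the list's summed signal was 39051 to 40178 in the eccentric pool, 39576 to 42641 in the isometric pool and 40020 to 40910 in the control pool. For eccentric against control 7 of the 13 were above 0 and the median log2 difference was 0.03. Single probe sets differed both ways, with 0.90 and -0.32 for Pdgfra, 0.60 for Fbln2 and -0.41 for Col1a1, none of them called. For the 7 member genes together the summed signal was 15486 to 15638 in the eccentric pool, 9580 to 10269 in the isometric pool and 5158 to 5221 in the control pool. Signs of RNA quality were read too. For beta-actin, the log2 ratio of the 3' over the 5' probe set averaged 0.44 in the eccentric pool, 0.21 in the isometric pool and 0.04 in the control pool. For Gapdh it averaged 0.12, 0.10 and -0.06 in the eccentric, isometric and control pools, and the isometric arrays, at -0.07 and 0.27, lay on either side of the eccentric arrays. Their part in the differences of the members was not tested.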

How the data were processed

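Per the labels, each RNA pool, from 4 animals, was split onto 2 Affymetrix MGU74Av2 arrays. The values the authors deposited are linear intensities, 1 for each probe set on each array. Neither the software nor its background correction and probe summary is given in the sources used here. The arrays had nearly equal trimmed means (500.3), so each value is relative to the rest of its array. Of 12488 probe sets 66 were array controls, 10833 named 1 gene, 396 several and 1193 none, from the platform annotation. Arrays were scaled to 1 trimmed mean (2% removed at each end), values under the 40th percentile (120.8) were raised to it and log2 was taken. Calls required a 2-fold difference and 1 sign in all 4 array pairings, over all probe sets. The number of arrays limits the precision.

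The members and lists were chosen with earlier results of these data known. Named were all members, up to 4 genes per list by the size of the eccentric against control difference, and the 3 genes most like each member. Alternatives changed the scaling, floor, filter, threshold and feature, left out arrays, or used limma with Benjamini-Hochberg adjustment, which here compares these pools only. Same-lettered arrays did not deviate together (correlations of 0.03, -0.11 and -0.04), so letters only name arrays. Promoter windows came from RefSeq (GRCm38.p6). Python 3.11.15, numpy 2.4.6, pandas 2.3.3, matplotlib 3.10.9, R 4.3.3 and limma 3.58.1 were used.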

Additional observations from a re-analysis of the deposited data

How the results depend on the processing

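No called member changed direction under the scalings, the lower floor or the arrays left out that were tried. The 7 member calls of the eccentric against control comparison were kept under each of these, and 6 were kept by limma with the array letter as a replicate block, which lost Mrc1. The 4 isometric against control calls became 2 with quantile normalisation (Cd68 and Lgals3 lost) and 2 after dropping control A and isometric B together (Cd68 and Msr1 lost), an alternative chosen after seeing the data because the 18S rRNA probe sets were brighter on these arrays than on their partners. With 1 array left out they were 2 to 3. limma called 0 member probe sets and 0 probe sets of any gene in that comparison, with and without the block. There 6 of 9 member probe sets and 770 of 7636 probe sets (681 with the block) had an unadjusted p below 0.05. The 3 eccentric against isometric calls became 7 at a 1.5-fold threshold, 5 after dropping that pair and 2 to 5 with 1 array left out. They became 0 by limma with and without the block. In that comparison 8 of 9 member probe sets, and 1416 of 7636 probe sets (1258 with the block), had an unadjusted p below 0.05.

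Over all probe sets, 447 were called between the eccentric and control pools, 97 between the isometric and control pools and 166 between the eccentric and isometric pools. With a floor at the 20th percentile these were 868, 418 and 475, and at a 1.5-fold threshold 1465, 491 and 925. After dropping that pair, isometric against control gave 206 and eccentric against isometric 261. With 1 array left out these 2 comparisons gave 122 to 280 and 227 to 280. The 97 isometric against control calls were 280 when control B was out, 209 for isometric A and 178 for isometric B, and the 166 eccentric against isometric calls were 280 when isometric A was out and 261 for isometric B. limma called 63 between the exercised pools, and 9 with the block. With 2 arrays of 1 pool per group, the spread between animals is not measured, and signals near the floor have no order.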
